A study of Mus musculus with 8 samples.

Results

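The astrocytes of the postnatal spinal cord were described here through 10 genes whose products regulate transcription in astrocytes: Sox9, Sox2, Nfia, Nfib, Nfic, Nfix, Zbtb20, Klf15, Rorb and Hopx. They were chosen by name, matched to Ensembl identifiers through the authors' deposited table of the comparison, and joined to the count table of each library. The 10 were found among the 39179 genes counted, and 10 of 10 passed the filter on low counts. The rule lists them by name, but the 10 were chosen with earlier results of these data known.

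The study asked about Kir4.1, a potassium channel of the inward rectifier type that the gene Kcnj10 encodes, in astrocytes that sit beside motor neurons. The 4 libraries of the knockout group (cKO; S3, S4, S5 and S8) came from mice of genotype Aldh1l1-cre with floxed/floxed Kir4.1, and the 4 control libraries (S1, S2, S6 and S7) from cre-negative mice, labelled as wild-type with Aldh1l1-GFP. Every animal in both groups carried the Aldh1l1-GFP reporter, was of mixed Swiss-Webster strain, and was aged P12 to P14, that is, 12 to 14 days after birth. No drug or other treatment is given, and the series describes the 4 libraries of a group as biological replicates. Whether control animals carried floxed alleles, and whether a library pooled animals, is not given in the sources used here. Aldh1l1, an astrocyte gene of folate metabolism, names both the cre line and the reporter by which cells were sorted, so the deletion covers cells with Aldh1l1 activity and the libraries hold GFP-positive cells only. The RNA was sequenced in bulk, so fewer cells of a type and less RNA per cell cannot be told apart.

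SOX2 and SOX9 are DNA-binding proteins of the SOX family: SOX2 maintains neural progenitors and SOX9 takes part in the switch from making neurons to making glia. Nuclear factor I (NFI) proteins, encoded by Nfia, Nfib, Nfic and Nfix, bind DNA as homodimers and heterodimers, and NFIA acts together with SOX9 at the onset of gliogenesis in the spinal cord. ZBTB20, KLF15 and RORB are zinc-finger DNA-binding proteins of other families, and HOPX is a small homeodomain protein that does not bind DNA itself and works through partner proteins.

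The libraries held 13892736 to 25065686 reads assigned to genes, with 17312 to 20470 genes detected per library. Mitochondrial and rRNA-like transcripts made up 34.6% to 47.2% of those reads. Kcnj10, the targeted gene, was at 1820 ± 468 CPM (gene counts scaled to a common library size; SD, n = 4) in control and 34.0 ± 4.64 (SD, n = 4) in cKO, so 1.87% of the control level was left, and every knockout library lay below every control. Its log2 fold change was −5.74 with an edgeR adjusted p of 7.52e-08. Aldh1l1 itself was higher in cKO, at 282 ± 48.8 against 139 ± 8.65 CPM (SD, n = 4 each), and its log2 fold change was 1.01 at an edgeR adjusted p of 0.0179. The cre was in cKO mice only, so the cre line and the deletion cannot be told apart for Aldh1l1. The part of Aldh1l1 in the results on the 10 genes was not tested.

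None of the 10 genes passed the test between cKO and control. With edgeR, 0 of 10 reached an adjusted p below 0.05, beside 47 of all 14757 genes tested (0.318%; 30 higher and 17 lower in cKO). Only Rorb, a nuclear receptor, had an unadjusted p below 0.05, against 9.81% of all genes tested, and the count was also 0 of 10 with DESeq2, which called 384 of 15441 genes (2.49%). The lowest adjusted p of the 10 was 0.462 by edgeR's quasi-likelihood test, for Rorb. The fitted change lay above 0 for 8 of the 10 and below 0 for Nfic and Klf15, which lay above 0 with counts scaled to library totals. The median log2 fold change was 0.21 over the 10 genes and −0.017 over all genes tested, of which 48.4% lay above 0. Scaling to library totals moved the median of all genes up by 0.108 and gave 48 genes higher and 14 lower, and the median of the 10 stood above that of all genes by 0.21 there and by 0.22 with TMM. The median of the 10 with TMM depended on 1 library, since without cKO S8 it was 0.079.

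The intervals say how large a change these libraries leave possible. The 95% interval of the log2 fold change held 0 for 9 of the 10 genes, and it lay within 2-fold in either direction for 9 and within 1.5-fold for 7. The fitted changes themselves ran from −0.071 for Klf15 to 0.37 for Hopx, and 42.4% of all genes tested had a change larger in size than that of Hopx. The median coefficient of variation (SD over mean) of the 10 genes was 12.9% against 33.2% over all genes tested in control, and 16.0% against 29.7% in cKO. The 10 genes had at least 394 counts in every library, while the genes tested include some with few counts. Their standard errors ran from 0.15 to 0.29, against a median of 0.36 over all genes tested. No comparison was made with genes of like abundance.

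**Figure D1:**
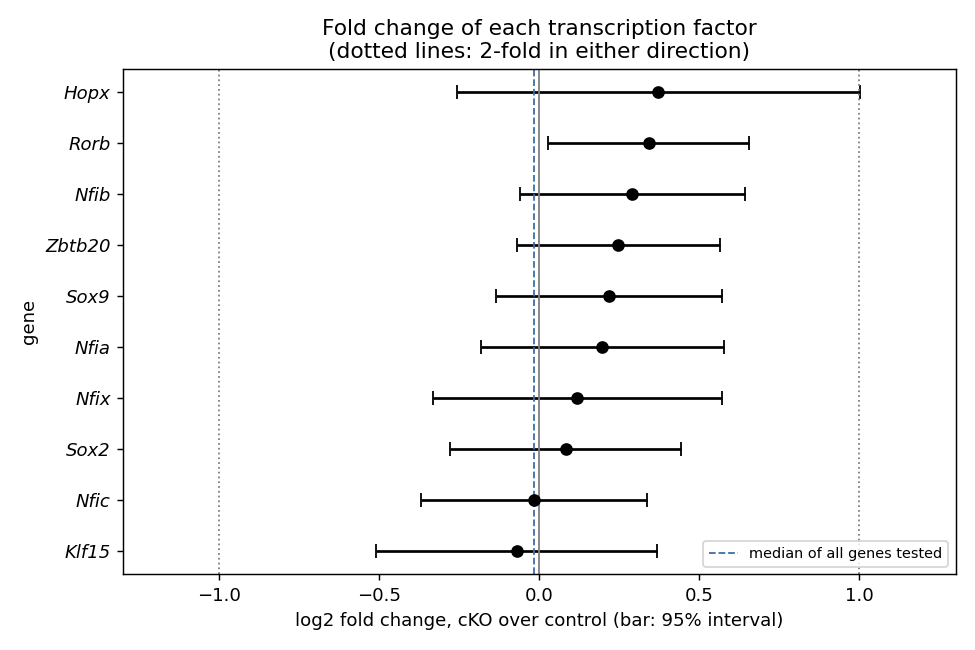
Log2 fold change of each of the 10 genes, cKO over control (x axis), with its 95% interval as a bar and dotted lines at 2-fold in either direction. The interval of Rorb, 0.03 to 0.66, is the only one above 0, and the widest, that of Hopx, reaches 1.0003.

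Sox9 (ENSMUSG00000000567, chr11:112782224-112787760 on the plus strand, GRCm38) encodes a factor often used as a nuclear marker of astrocytes. Listed in the order S1, S2, S6, S7, its CPM were 203, 203, 148 and 199 in control. Listed as S3, S4, S5, S8, they were 185, 226, 255 and 208 in cKO. Control S6 was the lowest of all 8 libraries and cKO S5 the highest, and the groups overlapped, since cKO S3 lay below 3 of the controls. The means were 188 ± 26.9 in control and 219 ± 29.7 in cKO (SD, n = 4 each). The log2 fold change was 0.22 (SE 0.16, 95% interval −0.14 to 0.57), with an adjusted p of 0.713 by edgeR.

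Sox2 (ENSMUSG00000074637, chr3:34650405-34652461, plus strand) has a single exon and lies within the noncoding gene Sox2ot on the same strand, with which it shares no exon bases. In the same order of libraries its CPM were 50.01, 64.7, 53.7 and 51.5 in control and 54.8, 65.3, 51.5 and 61.0 in cKO. The libraries covered nearly the same range in both groups, with control S2 and cKO S4 the highest. Group means were 55.0 ± 6.67 and 58.2 ± 6.17 (SD, n = 4 each), and the log2 fold change was 0.082 (SE 0.17, 95% interval −0.28 to 0.44) at an adjusted p of 0.914 by edgeR.

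Among the NFI genes, Nfia (ENSMUSG00000028565, chr4:97772734-98118874, plus strand) encodes the member most closely tied to the start of gliogenesis. Its CPM were 311, 344, 419 and 359 in control and 380.4, 438, 314 and 511 in cKO. cKO S8 was the highest library, while cKO S5 lay next to the lowest control, so the groups overlapped. The mean was 359 ± 45.4 in control and 411 ± 84.1 in cKO (SD, n = 4 each), so the log2 fold change was 0.20 (SE 0.18, 95% interval −0.18 to 0.58; edgeR adjusted p = 0.766).

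Nfib (ENSMUSG00000008575, chr4:82290173-82705750, minus strand) encodes a partner of NFIA in glial development. Its CPM were 199, 209.8, 239.5 and 214 in control and 239.5, 270.3, 215 and 329.7 in cKO. The highest library was again cKO S8, and the overlap came from control S6, which lay level with cKO S3 and above cKO S5. The means were 216 ± 17.2 and 264 ± 49.5 (SD, n = 4 each), and the log2 fold change was 0.29 (SE 0.16, 95% interval −0.06 to 0.64) at an adjusted p of 0.5996 by edgeR.

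For Nfic (ENSMUSG00000055053, chr10:81396186-81455635, minus strand), CPM were 125, 102, 122 and 140.4 in control and 122, 111, 104 and 145 in cKO. The libraries of the groups were interleaved and the means lay close, at 122 ± 15.7 and 121 ± 17.9 (SD, n = 4 each). The log2 fold change was −0.016 (SE 0.16, 95% interval −0.37 to 0.34; edgeR adjusted p = 0.984). The antisense gene Gm16104 shares 72 bases with its exons, where reads cannot be told apart without strand.

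Nfix (ENSMUSG00000001911, chr8:84699876-84800344, minus strand) encodes the NFI protein known for its part in the quiescence of neural stem cells. Its CPM were 219.7, 167, 285 and 321 in control and 211, 259, 287 and 320.1 in cKO. The highest library of each group was at nearly the same value, and control S2 was the lowest of all. Means of 248 ± 68.5 and 269 ± 46.0 (SD, n = 4 each) gave a log2 fold change of 0.12 (SE 0.21, 95% interval −0.33 to 0.57; edgeR adjusted p = 0.897). G430095P16Rik on the opposite strand shares 137 bases with its exons and had at most 4 counts in a library.

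Zbtb20 (ENSMUSG00000022708, chr16:42875881-43642602, plus strand) encodes a BTB and zinc-finger repressor that promotes astrocyte formation in the developing brain. Its CPM were 461, 552, 512 and 627 in control and 642, 626, 596 and 689 in cKO. Control S7 was the only control within the range of the knockout libraries, lying above cKO S5 and just above cKO S4. The means were 538 ± 69.9 and 638 ± 38.5 (SD, n = 4 each), the log2 fold change was 0.25 (SE 0.15, 95% interval −0.07 to 0.56), and the edgeR adjusted p was 0.620. The antisense gene Gm9968, with up to 245 counts in a library, shares 104 bases with the exons of Zbtb20.

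Klf15 (ENSMUSG00000030087, chr6:90462576-90475238, plus strand) encodes a Krüppel-like factor that responds to glucocorticoids. Its CPM were 42.8, 45.0, 40.5 and 61.6 in control and 37.6, 47.4, 39.6 and 56.2 in cKO. The highest libraries were control S7 and cKO S8, with the other 6 between 37.6 and 47.4, and the groups overlapped. The means were 47.5 ± 9.60 and 45.2 ± 8.43 (SD, n = 4 each), and the log2 fold change was −0.071 (SE 0.20, 95% interval −0.51 to 0.37; edgeR adjusted p = 0.942).

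Rorb (ENSMUSG00000036192, chr19:18930605-19111196, minus strand) encodes the retinoic acid receptor-related orphan receptor beta. Its CPM were 161, 159, 166 and 165 in control and 181, 198, 245 and 200.2 in cKO. Every knockout library lay above every control library, with cKO S5 the highest, and Rorb was the only one of the 10 genes whose groups did not overlap in this direction, against 3.39% of all genes tested. The means were 163 ± 3.06 and 206 ± 27.3 (SD, n = 4 each), so the log2 fold change was 0.34 (SE 0.15, 95% interval 0.03 to 0.66), or 1.27-fold (1.02 to 1.58). The unadjusted p was 0.0349 and the adjusted p 0.462 by edgeR's quasi-likelihood test, so the difference did not pass the test over all genes.

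The 4 control libraries were close to each other in Rorb, with a coefficient of variation of 1.88%. Only 0.0474% of all genes tested, which differ in abundance, had a lower one in control. In the authors' FPKM, described below, the controls were less close in Rorb, at 24.9 ± 2.54 (SD, n = 4). With counts scaled to library totals in place of TMM-adjusted totals, the groups of Rorb still did not overlap, and Nfib and Zbtb20 also separated, so 3 of 10 did, against 4.97% of all genes tested at that scaling, which moved the median of all genes up by 0.108 on the log2 scale.

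Counts are summed over a whole gene, so they do not tell apart transcripts from different starts. Rorb is shown as an example, since its RefSeq windows around 2 start sites differ in base composition. Each window runs from 250 bases before to 50 bases after the start, on the minus strand of GRCm38.p6, 5′ to 3′, with CG dinucleotides in capitals.
Rorb, chr19:19111147-19111446: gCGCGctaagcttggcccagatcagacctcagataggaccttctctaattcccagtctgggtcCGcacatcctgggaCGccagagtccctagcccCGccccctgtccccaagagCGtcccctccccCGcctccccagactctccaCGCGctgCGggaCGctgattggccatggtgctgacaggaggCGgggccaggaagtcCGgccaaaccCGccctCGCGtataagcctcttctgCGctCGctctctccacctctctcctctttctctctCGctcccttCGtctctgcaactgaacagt
Rorb, chr19:19001068-19001367: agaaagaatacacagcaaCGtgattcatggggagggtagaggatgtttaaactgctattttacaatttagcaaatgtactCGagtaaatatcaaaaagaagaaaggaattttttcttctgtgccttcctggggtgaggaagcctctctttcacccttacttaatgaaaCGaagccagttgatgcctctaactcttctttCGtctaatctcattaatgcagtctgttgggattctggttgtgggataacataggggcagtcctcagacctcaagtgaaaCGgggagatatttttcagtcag
The upstream window holds 20 CG dinucleotides at 63.7% G and C. The downstream one, inside the gene, holds 5 at 41.0%, beside medians of 7 and 52.7% over 32851 windows of the same length. Windows of Hopx (53.0% and 59.0% G and C) and of Nfix (44.3% to 57.3%) also differed between starts. Which start the reads came from was not analysed here.

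Hopx (ENSMUSG00000059325, chr5:77086988-77115121, minus strand) differed most between libraries among the 10 genes. Its CPM were 34.5, 28.7, 31.2 and 57.8 in control and 31.3, 42.1, 47.7 and 76.1 in cKO. Control S7 and cKO S8 stood well above the rest of their groups, and the groups overlapped. The means were 38.1 ± 13.4 and 49.3 ± 19.1 (SD, n = 4 each), and the log2 fold change was 0.37 (SE 0.29, 95% interval −0.26 to 1.0003; edgeR adjusted p = 0.727). Without cKO S8 the log2 fold change was 0.08, and without control S7 it was 0.65. The antisense gene Hopxos shares 412 bases, or 27.2% of the exon length of Hopx, and had at most 21 counts in any library. Strand use is not given, so these counts do not show how many Hopx reads fell in the shared bases.

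**Figure D2:**
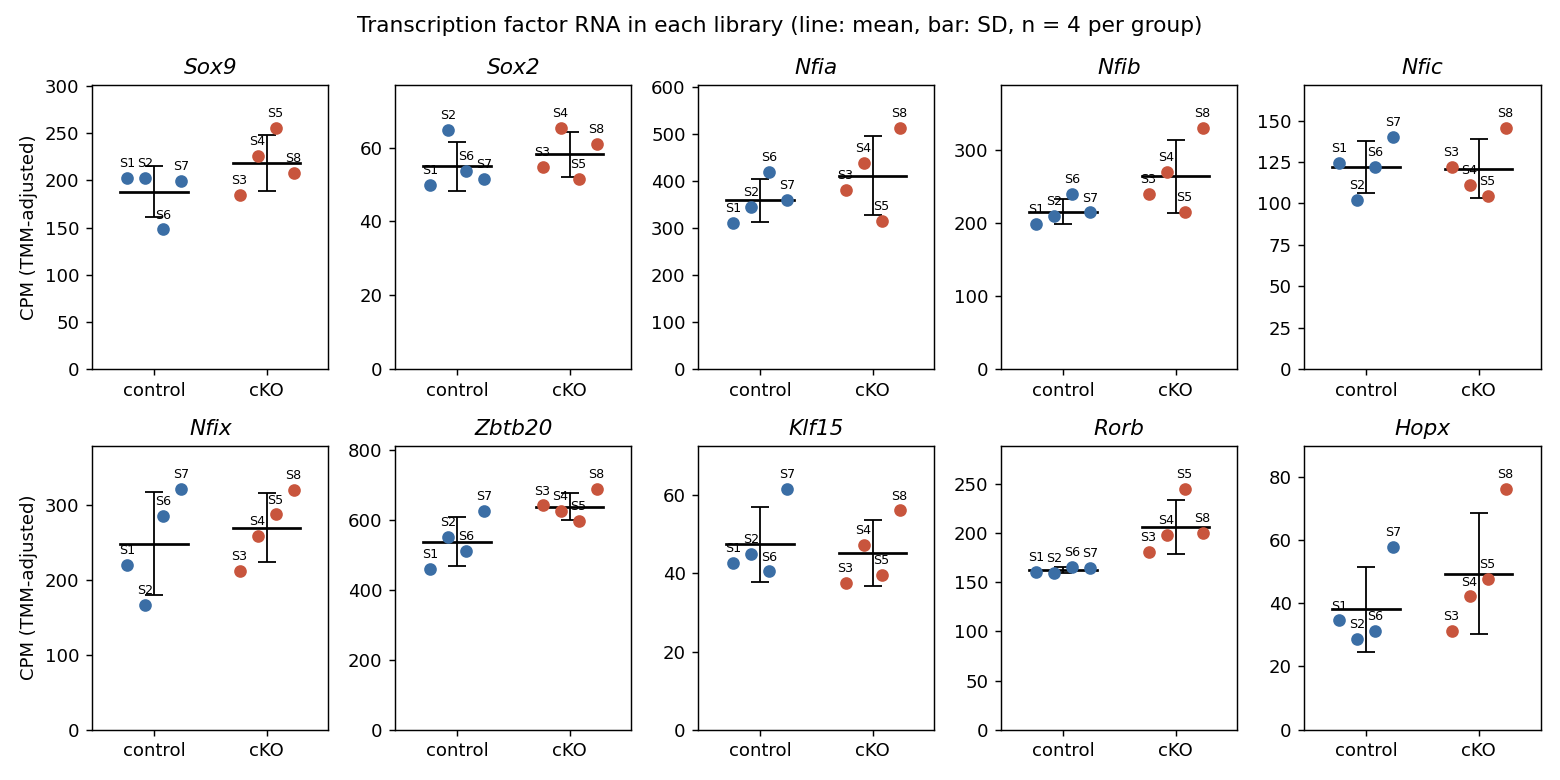
CPM, adjusted by TMM, of each gene (y axis from 0 in each panel) in the 4 control and 4 cKO libraries, with 1 point per library and bars for the mean and SD. Rorb is the only panel in which the groups are apart, with controls at 159 to 166 and cKO at 181 to 245.

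Across the 10 genes, some libraries lay high or low in many genes at once. cKO S8 was the highest library for 5 genes and lay above the gene's mean over the 8 libraries in 10 of 10, with a median deviation of 0.28 on the log2 scale. cKO S4 lay above the mean in 9 of 10. Control S1 and control S2 were each the lowest library for 4 genes. cKO S8 also had the most gene reads (25065686), and mitochondrial and rRNA-like transcripts made up 46.2% of them. Its TMM factor, 0.933, was the lowest of the 8 libraries. The part of these in its position was not tested. The same counts were not made over all genes tested, so the pattern cannot be called particular to the 10 genes.

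**Figure D3:**
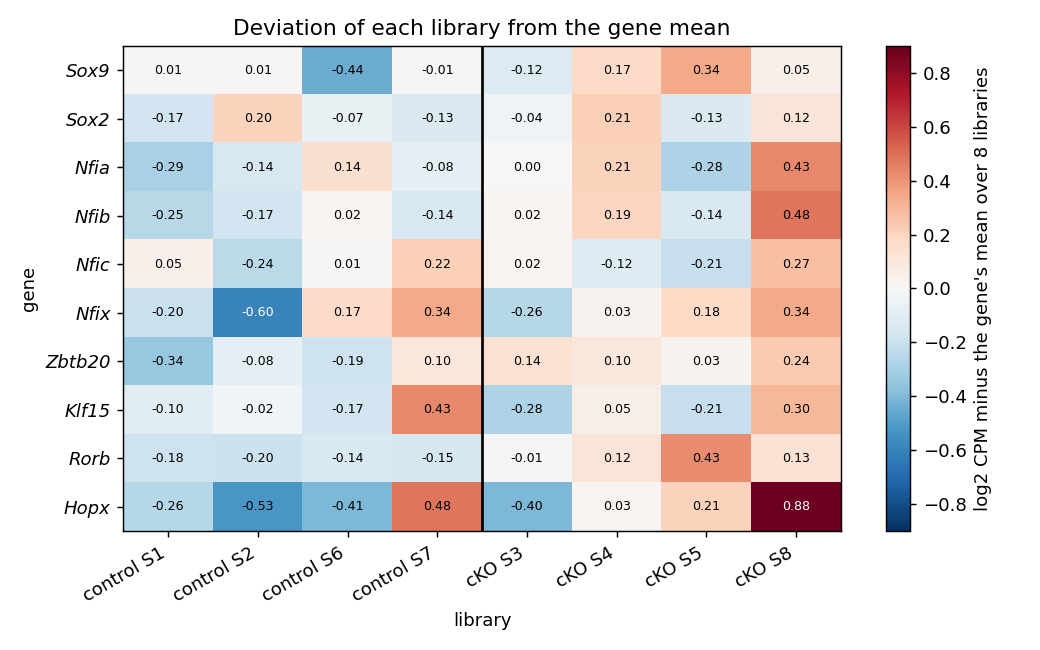
Deviation of log2 CPM from the gene's mean over 8 libraries, for 10 genes (vertical axis) and 8 libraries (horizontal axis), with the value printed in each cell. The column of cKO S8 is above 0 throughout, from 0.05 for Sox9 to 0.88 for Hopx, and control S2 is lowest for Nfix at −0.60.

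Nfia and Nfib, 2 NFI genes on chromosome 4, varied together over the libraries. Likeness was measured as the root mean square difference between centred log2 CPM over the 8 libraries, among 7879 genes with a mean of at least 10 CPM. Nfia and Nfib were each other's nearest gene, at 0.0744, where the median gene stood at 0.416 from Nfia and 0.408 from Nfib. A nearest gene lies below the median by construction, and Zbtb20, Sox2, Sox9, Nfic and, by a small margin, Klf15 each stood closer to theirs. The nearest gene to Sox9 was Bcan (0.0624), which encodes the proteoglycan brevican, and to Zbtb20 it was Fgfr1 (0.0563), a receptor for fibroblast growth factors. Nearest to Rorb was Mapk9 (0.0780), to Nfic Atp6v0a2 (0.0709), to Klf15 Gna12 (0.0742) and to Sox2 Mier3 (0.0596). For Nfix it was Pgpep1 at 0.0981, and Hopx stood farthest from its nearest gene, Dbi, at 0.163. These values describe the 8 libraries, which share depth and group differences across genes.

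Levels per transcript length were compared between genes in the authors' FPKM (fragments per kilobase of transcript, scaled to sequencing depth), given as group means because 5 of the 8 deposited columns did not track the counts of the library with the same name, while all 8 matched their own group. In control, Zbtb20 was the highest at 207 ± 45.5 FPKM (SD, n = 4, as are all values of this scale). It was followed by Nfia at 177 ± 53.3 and Nfix at 146 ± 20.1. Nfic, at 74.6 ± 11.4, came next and did not overlap with Nfix.

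The middle of the order held Sox9 at 61.9 ± 9.46 FPKM, Hopx at 56.6 ± 18.2 and Nfib at 55.4 ± 9.40, whose columns overlapped. Below them, and apart from Nfib, stood Sox2 at 35.5 ± 4.80. Klf15 at 27.4 ± 5.16 and Rorb at 24.9 ± 2.54 FPKM were last and overlapped each other. Of the 9 pairs of neighbours in this order, 7 overlapped. Zbtb20 stood 8.33-fold above Rorb, and the level of Rorb was above that of 91.0% of all 39171 gene identifiers with FPKM. Those identifiers include genes without reads, since 17312 to 20470 genes were detected per library by counts.

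In cKO the order by FPKM kept 5 of the 10 genes in place, with Zbtb20 at 222 ± 26.6, Nfia at 218 ± 48.1 and Nfix at 157 ± 36.7 still the first. Hopx stood at 78.3 ± 28.0 FPKM, Sox9 at 72.3 ± 9.51, Nfib at 68.6 ± 4.52 and Nfic at 56.3 ± 14.5. Sox2 was at 37.0 ± 4.15, Rorb at 33.1 ± 3.92 and Klf15 at 25.9 ± 4.67. The FPKM columns of Rorb ran from 21.8 to 27.7 in control and from 30.4 to 38.9 in cKO, so they too did not overlap.

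The order between genes depended on how length was taken into account. As CPM per kilobase of annotated exon, Sox9 was the highest in control at 45.5, followed by Nfix at 33.7, Nfia at 32.9, Sox2 at 26.7 and Hopx at 25.1. Nfic was at 18.4, Zbtb20 at 17.5, Klf15 at 17.0, Rorb at 14.7 and Nfib at 14.4 CPM per kilobase, and 0 of 10 genes kept the place they had by FPKM. The ratio of FPKM to CPM per kilobase ran from 1.33 for Sox2, with 2.06 kb of exon, to 11.8 for Zbtb20, whose annotated exons add up to 30.7 kb. Of the 45 pairs of genes, 29 had the same order on both scales, and in 15 the control ranges were apart on both. Among those 15, Nfia and Nfix were above Nfib, Nfic, Klf15 and Rorb, Sox9 was above Sox2, Klf15 and Rorb, and Sox2, Nfic, Zbtb20 and Hopx were above Rorb.

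**Figure D4:**
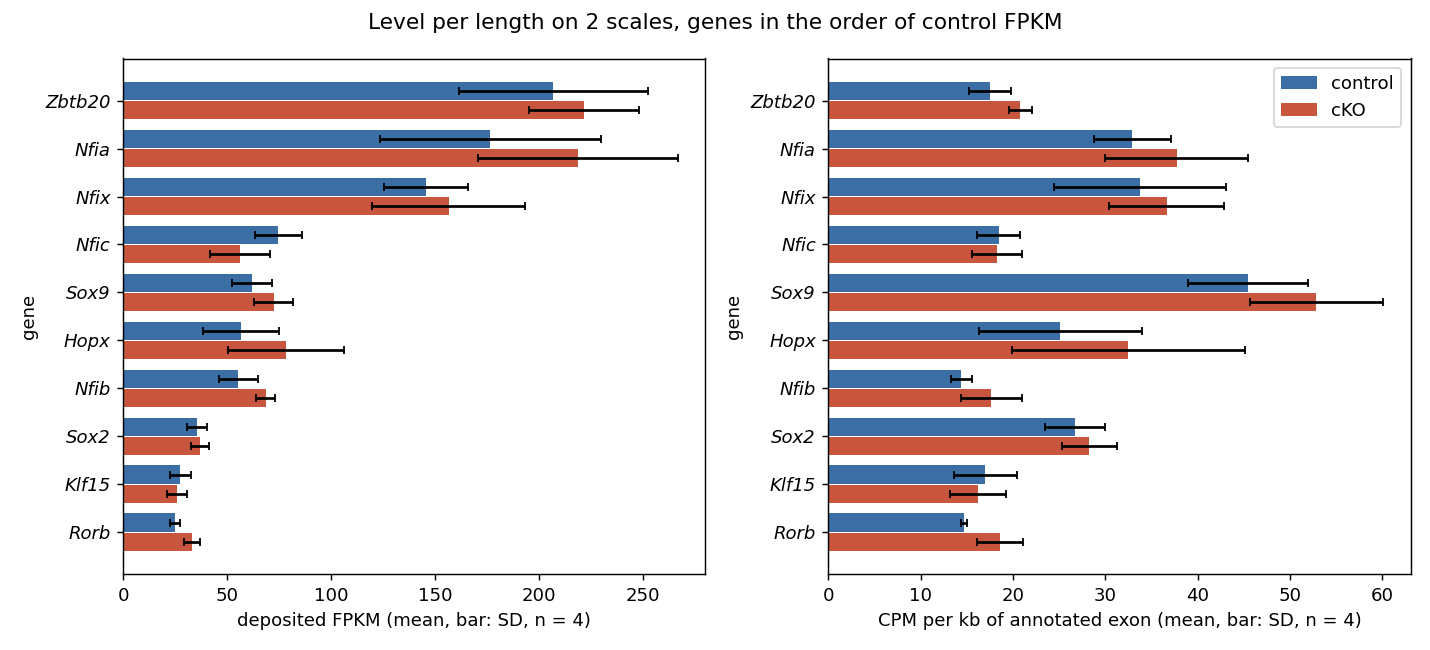
Mean level of the 10 genes in control and cKO as deposited FPKM (left) and as CPM per kilobase of annotated exon (right), on linear axes from 0, with bars for the SD over 4 columns or libraries. Zbtb20 leads by FPKM at 207 in control and Sox9 leads by CPM per kilobase at 45.5.

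Within the NFI family, Nfia and Nfix made up most of the summed level. In control, Nfia took 38.5% ± 6.04 of the FPKM summed over the 4 genes, Nfix 32.5% ± 4.33, Nfic 16.7% ± 3.22 and Nfib 12.3% ± 1.11 (SD, n = 4). In cKO the shares were 43.5% ± 3.24 for Nfia, 31.3% ± 5.01 for Nfix, 11.4% ± 3.37 for Nfic and 13.9% ± 1.20 for Nfib. By CPM per kilobase, Nfia had 33.3% in control and 34.1% in cKO, Nfix 33.4% in both, Nfic 18.6% and 16.6%, and Nfib 14.6% and 15.9%. The fitted change of Nfic was −0.43 on the log2(FPKM + 1) scale and −0.016 by counts, and it passed the test on neither scale.

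None of the 10 genes passed in the authors' deposited table either. That deposited table held 353 genes with an adjusted p below 0.05 among 12314, of which 183 were higher and 170 lower. In the authors' deposited table Rorb had the lowest adjusted p of the 10, 0.2403, with a log2 fold change of 0.33. Nfib followed in that deposited table with 0.27 (adjusted p = 0.475) and Zbtb20 with 0.23 (adjusted p = 0.488).

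Other regulators were taken from 4 lists that share some genes, of which 60 of 71 genes were tested and 0 passed with edgeR, against 0.318% of all genes tested. An unadjusted p below 0.05 was found for 13 of the 60, against 9.81% of all genes tested, and the lowest adjusted p was 0.0885 by edgeR. Of 30 tested regulators named for astrocytes and their progenitors, 22 had a fitted change above 0 and 8 below, with a median log2 fold change of 0.18. The most abundant by CPM were Trps1, at 250.1 in control and 251 in cKO, and Npas3, a factor of the bHLH-PAS class, at 237 and 293. Ppargc1a, a coactivator of mitochondrial genes, was at 182 and 222 CPM, and Sox8, a relative of Sox9, at 169 and 160.4.

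Family relatives of the 10 genes (15 tested, 9 above 0, median 0.11) included Klf9 at 169.8 CPM in control and 173 in cKO, Rora at 112 and 121, and Klf13 at 59.5 and 47.3. Among 8 genes reported elsewhere as targets of SOX9 or NFI factors, 4 lay above 0 and 4 below, with a median of −0.028. Sparcl1, which encodes a secreted synapse-related protein, was at 6284 CPM in control and 5879.5 in cKO, Slc1a3, the glutamate transporter GLAST, at 652 and 669.6, and Mmd2 at 345 and 299. Fabp7, the brain fatty acid-binding protein of radial glia and young astrocytes, was at 296 ± 102 CPM in control and 628 ± 144 in cKO (SD, n = 4 each). Its log2 fold change was 1.08 (SE 0.24) with an edgeR adjusted p of 0.0885, and its groups overlapped through control S7.

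With DESeq2, 5 of the 61 listed genes to which it gave an adjusted p passed, against 2.49% of all genes, with log2 fold changes in brackets: Fabp7 (1.08), Id3 (0.64) and Sox5 (0.54) above 0, and Apcdd1 (−1.43) and Sox18 (−3.35) below. Sox18 had few reads, at 5.92 CPM in control and 0.586 in cKO, with as few as 3 counts in a library. Fabp7 also passed with edgeR under library totals, under both other filters on low counts, and without control S7. Id3, Sox5, Apcdd1 and Sox18 were named after their values were seen.

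Regulators of other lineages (12 of 20 tested, 5 above 0 and 7 below, median −0.76) held genes of the oligodendrocyte line. Olig1 was at 301 CPM in control and 378 in cKO, Olig2 at 99.8 and 102, and Myrf at 79.3 and 53.5. Sox10 ran from 25.5 to 125 CPM in control and from 30.3 to 33.6 in cKO, with an edgeR adjusted p of 0.419. Neurod1, a neuronal factor, had 0 counts in all 8 libraries.

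**Figure D5:**
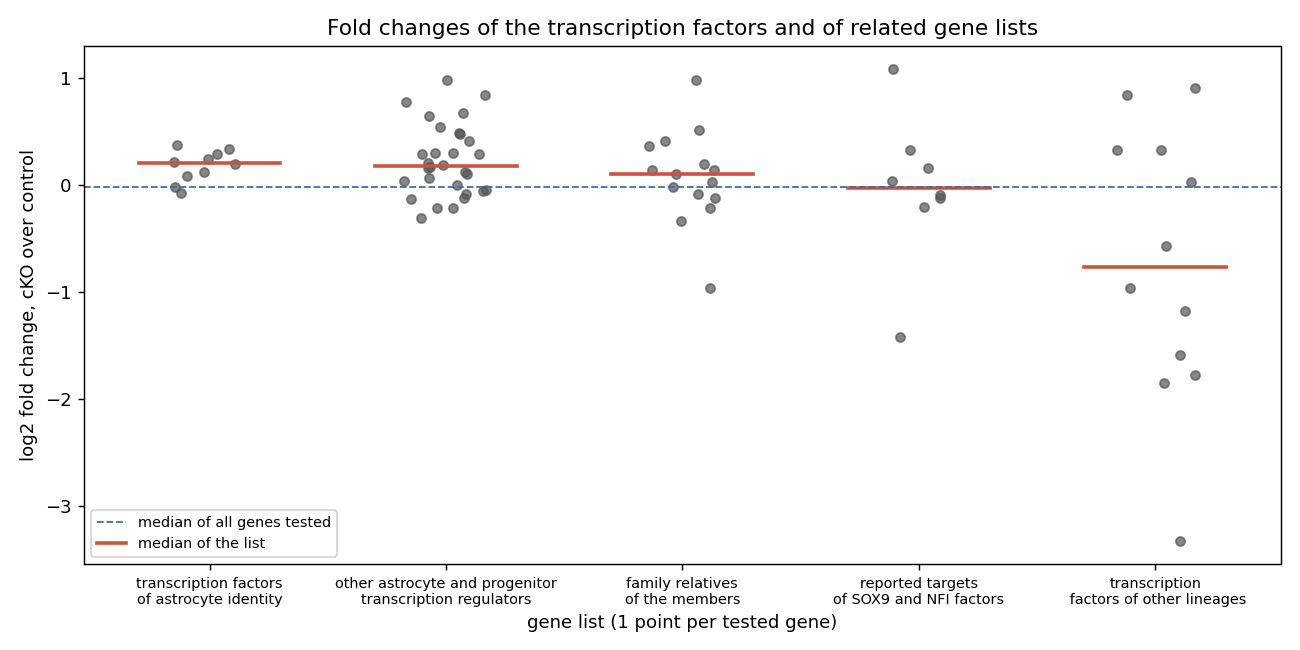
Log2 fold change, cKO over control (y axis), of the 10 transcription factors and of the tested genes of 4 related lists, 1 point per gene, with the median of each list as a solid line and the median of all genes tested dashed. List medians run from 0.21 for the 10 genes to −0.76 for factors of other lineages, and no point shown passed the edgeR test.

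The sorted cells carried high levels of defining astrocyte markers. The 12 astrocyte markers summed to 17301 to 25730 CPM in control and 19827 to 24232 in cKO, with 6 of 12 fitted changes above 0 and 6 below (median −0.069). Of the 12, 2 passed the edgeR test, against 0.318% of all genes tested. Both were higher in cKO: Aldh1l1 (above) and the water channel gene Aqp4 (log2 fold change 1.09, edgeR adjusted p = 0.0243). Ntsr2, a neurotensin receptor gene, had a fitted change of −1.45 at an edgeR adjusted p of 0.0544. Every cKO library lay below every control there, as for 434 of all 14757 genes tested. Also below 0 and not past the threshold were Gja1 (−0.48), Fgfr3 (−0.32), Gjb6 (−0.30), Glul (−0.20) and Slc1a2 (−0.18). Above 0 and not past it were Aldoc (0.17), Gfap (0.16), S100b (0.078) and Slc1a3 (0.039). Oligodendrocyte markers summed to 1585 to 3121 CPM in control and 1056 to 2525 in cKO, with 11 of 12 below 0. Markers of oligodendrocyte precursors summed to 364 to 1024 and 266 to 489 CPM, with 6 of 6 below 0.

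Of the other cell types, neuron markers summed to 51.3 to 89.1 CPM in control and 34.5 to 56.8 in cKO, with 7 of 9 tested below 0. Among them Gad2 stood at −2.09 and Snap25 at −0.67, each with every cKO library below every control, as for 434 of all 14757 genes tested. Syt1 (0.42) and Gad1 (0.37) lay above 0. Microglia markers summed to 27.1 to 46.7 and 25.9 to 64.1 (2 of 8 below 0), and endothelial markers to 53.2 to 76.6 and 27.1 to 65.9 (8 of 9 below 0). Mural markers summed to 97.3 to 121 and 55.6 to 95.8 (4 of 5 below 0), and ependymal markers to 7.86 to 29.99 and 9.46 to 28.7 CPM (2 of 4 below 0). Fibroblast markers summed to 109 to 578 and 75.7 to 151 CPM, with 5 of 5 below 0 and Dpep1 at 0 in every library. The lowest adjusted p of any tested marker of these other types was 0.148 by edgeR, in the fibroblast list. SOX2, the NFI factors and ZBTB20 are also made in some of these cell types, and the part of such cells in the levels above was not tested.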

How the data were processed

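Counts per gene and library were deposited by the authors, who used TopHat2 2.0.11, Bowtie2 2.2.3 and HTSeq 0.6.1p1 on GRCm38, per the submitters' processing notes. Strand use and the annotation release are not given in the sources used here. FPKM per library (Cuffnorm, Cufflinks 2.2.1) and a DESeq2 1.14.1 comparison were also deposited by the authors. The deposited comparison holds a mean per group of counts divided by size factors (a signal), a log2 fold change, its standard error and statistic (scores) and p-values. Cells came from papain-dissociated cord, and cDNA from full-length RNA with a NuGEN kit, per the labels.

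The 5 summary lines of each count table, 56.4% to 61.7% of reads, were left out. Counts were tested with edgeR 4.0.16 (TMM, filterByExpr, quasi-likelihood test, no covariate; R 4.3.3), with Benjamini-Hochberg adjustment over 14757 genes and a threshold of 0.05. CPM used TMM-adjusted totals. Standard errors came from the F statistic. DESeq2 1.42.0 and limma 3.58.1 (voom, and log2(FPKM + 1)) served as alternatives. Symbols matched 38130 of 39179 identifiers; coordinates, exon lengths and overlaps are from GENCODE M21, and promoter windows, found for 8 of the 10 genes, from RefSeq.

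The 10 genes and all lists were chosen with earlier results of these data known. Named were the 10 genes, Kcnj10, each list's genes past the threshold (up to 8) and its 4 most abundant in control, and each gene's nearest gene over the libraries. Some marker genes of the lists described, and Neurod1, were named in addition. Figures were drawn with matplotlib 3.10.9.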

Additional observations from a re-analysis of the deposited data

Results flagged for a closer look

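The Sox9 level of control S6, 147.923 CPM, stood apart from the other 3 controls, which lay between 199 and 203 CPM. Control S7 had 17984 genes detected, fewer than the 18975 to 19111 of the other controls. Both were picked out by the gap to the nearest library of the same group relative to the group's range (Dixon's criterion). Among the 26 groups of 4 libraries examined, 2 passed it, where chance gives about 1.3.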

How the results depend on the processing

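None of the 10 genes passed the threshold in any of the 18 alternatives run, and the lowest adjusted p was 0.261, for Rorb with DESeq2. Of 180 values, 9 had the opposite sign. Nfic stood at 0.0868 with library totals, at 0.0501 with Xist, the RNA of the inactive X chromosome, as a covariate (no label gives sex), and between −0.1162 and 0.0651 with 1 library left out. Klf15 stood at 0.0180 with library totals and between −0.1922 and 0.0865 with 1 library left out, and Nfix between −0.0301 and 0.2782. The count of all genes changed was 87 with at least 1 count in any library, 84 with at least 10 in every library, 384 with DESeq2, 12 with limma on FPKM at either pseudocount (1 or 0.1), 28 with the Xist covariate, and 4 (without cKO S4) to 45 with 1 library left out; the cause was not tested. Of the related regulators, 1 passed with library totals and 1 with either filter, 5 with DESeq2, and 0 to 1 with 1 library left out. By exon length, 0 of the 10 genes kept their place in the order of levels, and 6 (without control S6) to 10 kept it with 1 control left out. No paired analysis was made, because the labels give no litter or batch by which libraries could be paired. The lowest count of the 10 genes in a library was 394, and with 4 libraries a group the interval lay within 1.5-fold for 7 of them. FPKM columns could be used by group only.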
